A study of Arabidopsis thaliana with 6 samples.

Results

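The transcripts of 10 genes that set the outcome of glucosinolate breakdown were followed in *Arabidopsis thaliana* root tips. They are the nitrile specifier genes *NSP1* to *NSP5*, the epithiospecifier gene *ESP*, its modifier *ESM1*, the root myrosinase genes *TGG4* and *TGG5*, and *PEN2*. The genes were picked by locus identifier from the 33201 rows of the deposited table, and all 10 were found, each in a row of its own. The set was selected on the same Col and *an3* values that are given below, so these values describe the genes and support no test. The wild type was Columbia (Col), and the mutant was the *an3* loss-of-function line of *ANGUSTIFOLIA 3* (*AN3*), which codes for a co-activator that partners GRF proteins. Seeds of 3 biological replicates per genotype were sown densely on medium with sucrose, and root tips of about 5 mm were taken after 5 days, so that each sample pooled many seedlings. The study sequenced *an3* roots to look for genes that act downstream of AN3 in stem cell divisions.

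The table gives 1 FPKM value (fragments per kilobase, scaled for transcript length and sequencing depth) per genotype, which stands for the 3 samples together. The spread between replicates therefore cannot be shown, no value below carries an error, and the depth of the samples is unknown. *AN3* itself (AT5G28640) had 21.5 FPKM in Col against 2.55 FPKM in *an3*, which is 88.1% lower. The tissue label, meristematic root tissue, was compared with marker genes. All 4 root cap markers were measured in both genotypes, with summed levels of 157.1 FPKM in Col against 192.1 FPKM in *an3*, as were all 5 endodermis markers, with 1411 and 1845 FPKM. Of 5 meristem markers, *SCR* had 25.1 and 21.2 FPKM and *SHR* 9.71 and 9.06 FPKM. *PLT1* and *PLT2* stayed under 2 FPKM, and *RGF1* was at 0.201 FPKM in Col and listed at 0 in *an3*. The 4 markers of guard cells and myrosin cells, *TGG1*, *TGG2*, *FAMA* and *SCAP1*, were listed at 0 in both genotypes.

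Glucosinolates are sulfur-containing defence compounds of the cabbage order that are stored apart from the enzymes that open them. When tissue is broken, a myrosinase cuts off the glucose, and the remaining part rearranges by itself into an isothiocyanate. Specifier proteins turn this step towards other products, simple nitriles with the NSP proteins and epithionitriles with ESP, while ESM1 is known to favour isothiocyanates. TGG4 and TGG5 are the myrosinases known from roots, TGG1 and TGG2 those of the shoot, and PEN2 is an atypical myrosinase that acts on indole glucosinolates in living cells during defence against fungi.

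Several of these genes are close copies, so it matters whether reads of 100 bases can tell them apart. The coding sequences were read from the RefSeq copy of the TAIR10.1 assembly by locus identifier. The sources used here do not name the build behind the deposited table, so no genome coordinates are printed. *NSP3*, *NSP1* and *NSP4* follow each other in this order on the plus strand of chromosome 3. *NSP3* and *NSP1* code for 467 and 470 residues and *NSP4* for 619, all with a jacalin-like lectin part and a kelch part. *NSP5* on chromosome 5 (326 residues) and *ESP* on chromosome 1 (341 residues) are the short kelch forms. The coding sequence of *NSP3* was 92.2% identical to that of *NSP1*, 90.8% to that of *NSP4* and 65.9% to that of *NSP5*. The stretch of *NSP3* that is most like *NSP1* is shown to make the closeness visible. It spans positions 1266 to 1365 of the *NSP3* coding sequence, counted from the A of the start codon, and lies in exon 4, with the matching stretches of *NSP1* (1275 to 1374, exon 4), *NSP4* (1722 to 1821, exon 5) and *NSP5* (834 to 933, exon 2), all given 5′ to 3′ on the coding strand. Capitals mark the bases that differ from *NSP3*, of which there are 2 in *NSP1*, 5 in *NSP4* and 35 in *NSP5*.
NSP3: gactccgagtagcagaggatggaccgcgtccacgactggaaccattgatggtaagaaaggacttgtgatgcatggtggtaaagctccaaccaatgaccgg
NSP1: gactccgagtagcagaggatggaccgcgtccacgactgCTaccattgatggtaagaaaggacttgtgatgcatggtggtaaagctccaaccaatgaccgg
NSP4: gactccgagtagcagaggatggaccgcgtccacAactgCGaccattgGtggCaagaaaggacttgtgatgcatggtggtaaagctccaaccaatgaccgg
NSP5: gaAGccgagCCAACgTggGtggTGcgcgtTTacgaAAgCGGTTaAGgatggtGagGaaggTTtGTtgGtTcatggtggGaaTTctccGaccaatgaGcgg

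Where the pair is least alike, at positions 378 to 477 of both coding sequences (exons 3 and 4), *NSP1* has 14 bases that differ from *NSP3*, again in capitals.
NSP3: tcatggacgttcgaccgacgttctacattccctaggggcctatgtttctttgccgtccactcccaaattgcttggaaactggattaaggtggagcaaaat
NSP1: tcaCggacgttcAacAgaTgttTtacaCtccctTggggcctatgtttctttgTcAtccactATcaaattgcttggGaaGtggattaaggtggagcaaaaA

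Every stretch of 100 bases in the *NSP3* transcript was particular to it in the assembly and in the transcripts of other genes, on both strands. None of its 1621 windows occurred elsewhere, and the longest run it shared was 68 bases with *NSP1* and 56 bases with *NSP4*. *NSP1* and *NSP4* had 384 windows in common, which is 20.7% of those of *NSP1* and 16.6% of those of *NSP4*, and reads from there cannot be assigned to either gene. *NSP2*, *NSP5*, *ESP* and *PEN2* had no shared window, and 20.2% of the windows of *ESM1* occurred elsewhere in the assembly. *TGG4* and *TGG5*, both on the plus strand of chromosome 1 and both with 13 exons, were 97.7% identical over their coding sequences, and 174 windows were the same, 10.4% of those of *TGG4* and 9.93% of those of *TGG5*. An example of an identical stretch is at positions 156 to 255 of both coding sequences (exons 1 to 3), which is shown once for each gene. The stretch in which they differ most is at positions 1046 to 1145 (exons 9 and 10), with 6 differing bases in capitals.
TGG4, positions 156 to 255: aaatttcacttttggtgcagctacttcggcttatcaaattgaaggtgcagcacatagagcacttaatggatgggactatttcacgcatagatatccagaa
TGG5, positions 156 to 255: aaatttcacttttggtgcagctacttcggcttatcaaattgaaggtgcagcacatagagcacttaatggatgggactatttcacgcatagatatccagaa
TGG4, positions 1046 to 1145: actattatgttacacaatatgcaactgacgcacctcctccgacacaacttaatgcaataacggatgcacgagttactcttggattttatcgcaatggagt
TGG5, positions 1046 to 1145: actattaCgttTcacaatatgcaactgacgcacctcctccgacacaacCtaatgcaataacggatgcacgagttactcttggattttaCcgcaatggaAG

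Nitrile specifier transcripts were lower in *an3* root tips than in Col, by far the most for *NSP3*. The transcripts of *TGG4*, *TGG5* and *PEN2* had nearly the same level in both genotypes. *NSP3* (AT3G16390) had 96.0 FPKM in Col against 28.3 FPKM in *an3*, so 29.5% of the Col level was left and the log2 ratio of *an3* over Col was -1.76. Log2 ratios were computed after adding 0.1 FPKM to each value. *NSP5* (AT5G48180), the most abundant of the family, had 239 FPKM in Col against 165 FPKM in *an3*, a log2 ratio of -0.53. *NSP1* (AT3G16400), the main nitrile specifier of rosette leaves and seedlings, had 79.0 and 60.9 FPKM, a log2 ratio of -0.38. *NSP4* (AT3G16410) had 78.1 and 68.1 FPKM, a log2 ratio of -0.20. In Col the order of the levels was *NSP5*, *NSP3*, *NSP1* and *NSP4*, and in *an3* it was *NSP5*, *NSP4*, *NSP1* and *NSP3*. *NSP1* and *NSP4* differed by under 1 FPKM in Col and share windows, so their order there is uncertain. Their summed level was 157.1 FPKM in Col against 129.0 FPKM in *an3*, a log2 ratio of -0.28.

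**Figure D1:**
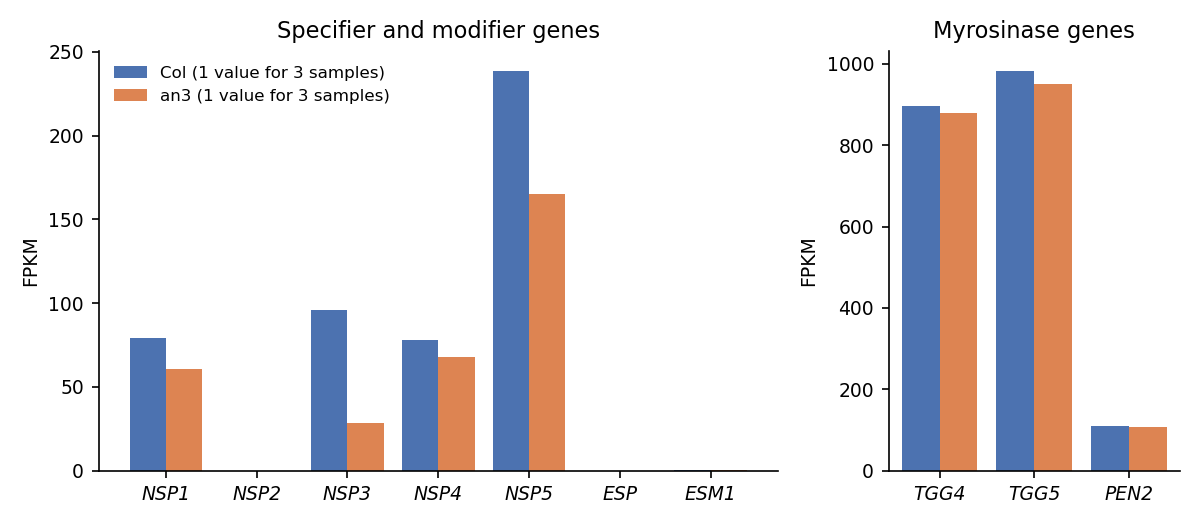
FPKM of the 10 genes in Col (blue) and *an3* (orange), with separate linear axes for the specifier and modifier genes and for the myrosinase genes. Each bar is the authors' value for the 3 samples of a genotype, so there are no error bars. *NSP3* goes from 96.0 to 28.3 FPKM and *NSP5* from 239 to 165 FPKM, *TGG4*, *TGG5* and *PEN2* have bars of nearly equal height, and *NSP2*, *ESP* and *ESM1* are at or near 0.

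The change in *NSP3* and *NSP5* accounted for most of the lower nitrile specifier level. The summed FPKM of *NSP1* to *NSP5* was 491.7 in Col and 322.4 in *an3*, a log2 ratio of -0.61. Of this difference of 169.3 FPKM, *NSP5* made up 43.5% and *NSP3* 39.9%. The share of *NSP3* in the summed level was 19.5% in Col and 8.79% in *an3*. The share of *NSP5* was 48.5% and 51.2%, that of *NSP1* 16.1% and 18.9%, and that of *NSP4* 15.9% and 21.1%. *NSP3* thus lost share to the others, with *NSP1* and *NSP4* together at 31.9% in Col and 40.0% in *an3*. In bulk root tips, fewer cells of a type and less RNA per cell cannot be told apart.

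**Figure D2:**
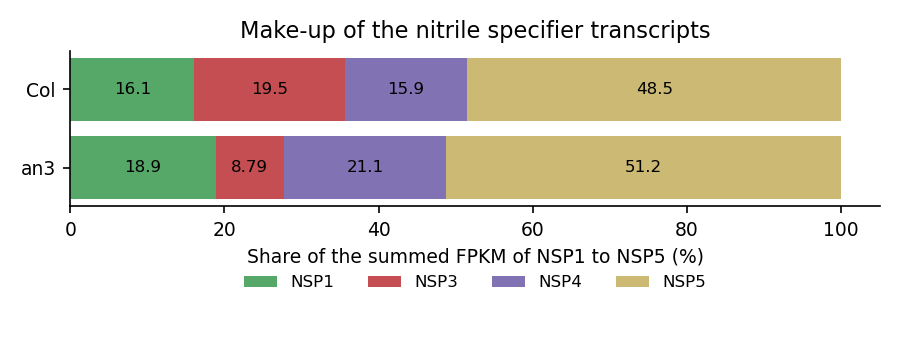
Share of each nitrile specifier gene in the summed FPKM of *NSP1* to *NSP5*, in percent, for Col (upper bar) and *an3* (lower bar), with the shares written in the segments. *NSP2* was listed at 0 and has no segment. The *NSP3* segment is 19.5% in Col and 8.79% in *an3*.

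*NSP2*, *ESP* and *ESM1* were listed at 0 or under 1 FPKM in these root tips. *NSP2* (AT2G33070), the nitrile specifier known from seeds, and *ESP* (AT1G54040), whose activity is known to differ between accessions, were listed at 0 in both genotypes, as were 10640 of the 33201 rows. *ESM1* (AT3G14210), known from leaves, had 0.164 FPKM in Col against 0.399 FPKM in *an3*. Without read counts, an upper limit cannot be given for a gene listed at 0, and no size of change is read from the low values of *ESM1*. The remaining 7 genes averaged at least 1 FPKM over both genotypes and are called measured below.

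*TGG4* and *TGG5* were among the most abundant transcripts of the root tip. *TGG5* (AT1G51470) had 983 FPKM in Col against 949 FPKM in *an3*, a log2 ratio of -0.05. *TGG4* (AT1G47600) had 895 FPKM in Col against 878 FPKM in *an3*, a log2 ratio of -0.03. In Col they ranked 83 and 93 of all rows by level, and in *an3* 96 and 114. Their summed level was 1878 and 1828 FPKM, and the ratio of *TGG5* to *TGG4* was 1.10 in Col and 1.08 in *an3*. The similar pair is therefore at nearly equal levels in both genotypes, within the limit that about 10% of their windows are the same. *PEN2* (AT2G44490) had 109.5 FPKM in Col against 107 FPKM in *an3*, a log2 ratio of -0.04, and lay 8.18 times below *TGG4* in Col and 8.22 times below it in *an3*. Since the specifier level differed and that of *TGG4* and *TGG5* hardly did, the ratio of summed *TGG4* and *TGG5* to summed nitrile specifiers was 3.82 in Col and 5.67 in *an3*. Other β-glucosidases are not part of this ratio.

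A change of 1.5-fold was used as a size limit, since no test between replicates was possible. Of the 7 measured genes, *NSP3* was lower by at least 1.5-fold, against 3.06% of the 17229 rows that averaged at least 1 FPKM. None was higher by 1.5-fold, against 3.89% of these rows. With a limit of 20% lower instead, *NSP3*, *NSP5* and *NSP1* passed, against 10.2% of the rows. *NSP5* lies just short of 1.5-fold, at 1.45-fold, and passes it when each column is scaled to the same sum, which moves its log2 ratio to -0.59 and those of the other measured genes by about -0.06. All 7 measured genes had a log2 ratio below 0, as did 50.6% of the rows, and their median was -0.20 against -0.0034 over the rows. Abundant transcripts varied less. Among the 3246 rows with at least 50 FPKM in the higher genotype, a group that holds all 7 measured genes, 4.13% were at least 20% lower, 0.801% were lower by at least 1.5-fold, and 40.0% had a log2 ratio below 0. The log2 ratio of *NSP3* was the lowest of these 3246 rows, *NSP5* ranked 33 from the lowest, *NSP1* ranked 91 and *NSP4* ranked 365. *NSP3* reached 50 FPKM in Col only, so it entered the group through the value that also makes its ratio low. Its rank there is a description and supports no test. *TGG4*, *TGG5* and *PEN2* ranked between 990 and 1136. The same rows had a 5th to 95th percentile of -0.31 to 0.42, and *NSP4*, *TGG4*, *TGG5* and *PEN2* lay inside it. Over all 17229 rows, *NSP3* ranked 28 from the lowest.

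**Figure D3:**
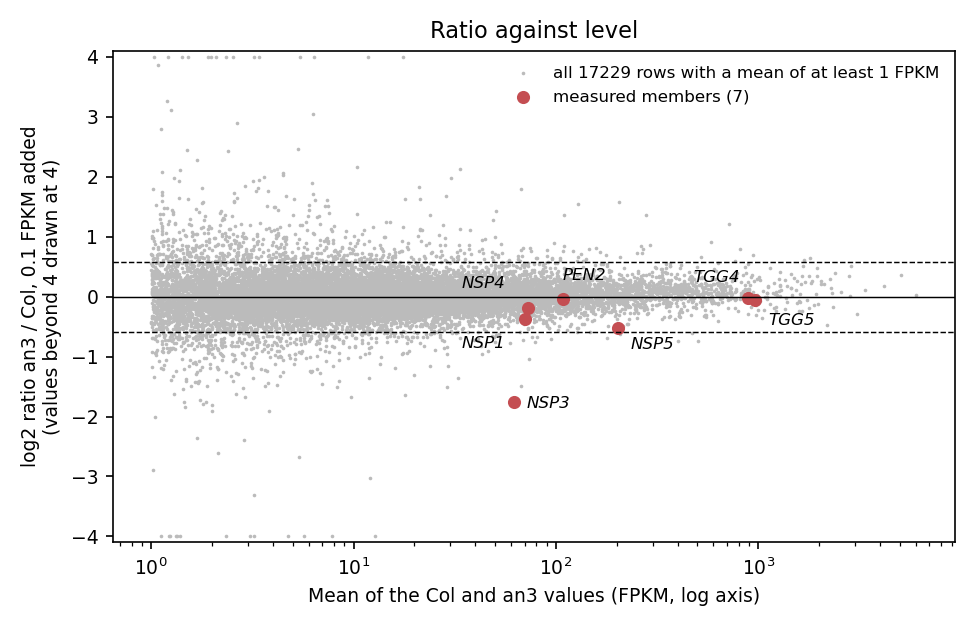
Log2 ratio of *an3* over Col (0.1 FPKM added) against the mean of both values in FPKM on a log axis. Grey points are the 17229 measured rows, red points the 7 measured genes, dashed lines mark 1.5-fold, and ratios beyond 4 are drawn at 4. *NSP3* at -1.76 lies below every other row with at least 50 FPKM in the higher genotype, a level it reaches in Col only. *NSP5* at -0.53 lies just inside the lower line, and *TGG4*, *TGG5* and *PEN2* lie at 0 within 0.05.

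Few abundant rows had a ratio near that of *NSP3*. Over the pair of genotype values, the nearest was AT1G30990, which has no name in the annotation used, with 99.4 FPKM in Col against 35.1 FPKM in *an3* (log2 ratio -1.50). It was followed by AT4G11190 (-1.04), the chloroplast row ATCG00770 (-0.96), the thiolase gene *KAT5* (-0.90) and the chloroplast row ATCG01120 (-0.82). This likeness rests on 2 values per gene.

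The array on chromosome 3 that starts with *NSP3* goes on, after *NSP4*, with jacalin-related lectin genes up to *JR1*. Its 9 measured genes all had a log2 ratio below 0, as did 50.6% of all measured rows and 40.0% of the rows with at least 50 FPKM. Without *NSP3* the other 8 ranged from -0.43 to -0.01, with a median of -0.21. Of the 10 measured genes among the 8 genes on each side of the array, 1 had a log2 ratio below 0, and their median was 0.08. *PBP1*, which codes for a lectin that binds the β-glucosidase PYK10 and is the most abundant gene of the array, had 1449 FPKM in Col against 1251 FPKM in *an3*. *JR1* at the far end, a jasmonate-responsive lectin gene, had 10.998 and 8.121 FPKM. The level of *NSP3* relative to its neighbour *NSP1* was 1.21 in Col and 0.466 in *an3*. Similar genes of an array can share reads, as shown for *NSP1* and *NSP4*.

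**Figure D4:**
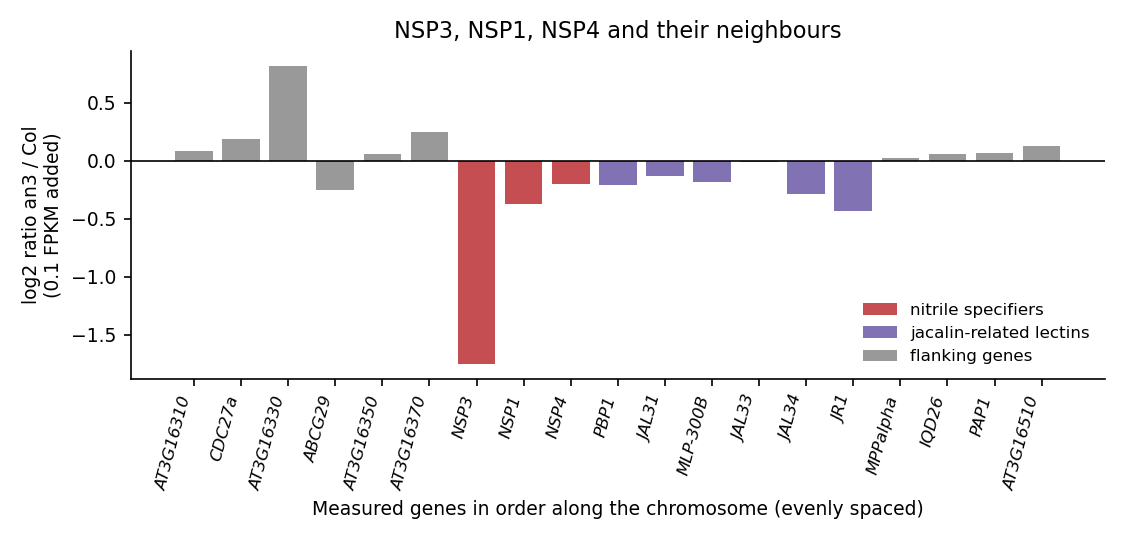
Log2 ratio of *an3* over Col (0.1 FPKM added) for the measured genes from 8 genes before *NSP3* to 8 genes after *JR1*, in their order on chromosome 3 and evenly spaced. Genes with a mean under 1 FPKM are left out. The nitrile specifiers (red) and jacalin-related lectins (purple) all lie below 0, from *NSP3* at -1.76 to *JAL33* at -0.01, whose bar is too short to see, and 1 of the 10 flanking genes (grey), *ABCG29*, does so.

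The other steps of the pathway were compared with lists of genes. Among other β-glucosidases, *PYK10*, the main protein of root ER bodies, had 2531 FPKM in Col against 1815 FPKM in *an3*, a log2 ratio of -0.48. *BGLU21* and *BGLU22*, its close relatives, had log2 ratios of -0.31 and -0.27. The shoot myrosinase genes *TGG1* and *TGG2* and the pseudogene *TGG3* were listed at 0 in both genotypes. None of the 4 measured genes of this list passed 1.5-fold in either direction, and the median was -0.29. Of these, 3 had a log2 ratio below 0, as did 50.6% of all measured rows and 40.0% of those with at least 50 FPKM. *PYK10* passed the limit of 20% lower, as did 4.13% of the rows with at least 50 FPKM, and *BGLU21* and *BGLU22* did not. *NAI2*, needed for ER body formation and the most abundant of the 4 ER body genes, had 461 and 363 FPKM. None of the 4 passed 1.5-fold, *MEB1* and *MEB2* had log2 ratios of -0.01 and 0.03, and the median was -0.14. *NAI2*, at a log2 ratio of -0.35, passed the limit of 20% lower, and the other ER body genes did not.

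None of the 7 measured jacalin-related lectins, some of which associate with myrosinases and β-glucosidases, passed 1.5-fold. *JR1* alone among them passed the limit of 20% lower. The 6 of the array had log2 ratios from -0.43 to -0.01, *JAL22* outside it had 3.21 FPKM in both genotypes, and the median of the 7 was -0.18. The myrosinase-binding protein gene *MBP1* averaged under 1 FPKM, with 0.387 FPKM in Col and 1.54 FPKM in *an3*. Of 6 GDSL lipase-like relatives of *ESM1*, 5 were measured, and 4 of these had a log2 ratio above 0, with a median of 0.13. *GLL22*, the most abundant and the exception, had 615 FPKM in Col against 487 FPKM in *an3*, and none of the 5 passed 1.5-fold. *GLL22* passed the limit of 20% lower. The nitrilases, which act on nitriles, had *NIT1* as the most abundant member, with 225 and 190 FPKM, none of the 4 passed 1.5-fold, and their median log2 ratio was -0.18. Of the 4 measured genes that work with *PEN2*, such as the exporter gene *PEN3*, none passed either, the median log2 ratio was 0.14, and the glutathione transferase gene *GSTU13* had 104 FPKM in Col against 137 FPKM in *an3*.

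Genes for the synthesis of aliphatic glucosinolates had higher values in *an3*, at low levels. Of 18 listed genes, 9 were measured, and 7 of these were higher by at least 1.5-fold and none lower, with a median log2 ratio of 1.06. Over all measured rows, 3.89% were higher and 3.06% lower by this limit. With 1 FPKM added to each value, 6 of the 9 were higher by 1.5-fold, and the median was 0.80. Without the minimum on the mean, 11 of the 18 were higher by 1.5-fold and none lower, and the median was 0.96. The genes gained in this way averaged under 1 FPKM, so no size of change is read from them. Of the 7 measured genes past the limit, *IPMI-SSU2* and *UGT74C1* were under 1 FPKM in Col and passed the minimum through their *an3* value. *IPMDH1* (AT5G14200), an isopropylmalate dehydrogenase of side chain elongation, had 3.40 FPKM in Col against 8.19 FPKM in *an3*. The small isomerase subunit gene AT3G58990 had 1.68 and 5.91 FPKM. *IPMI-LSU1* (AT4G13430), whose product also serves leucine synthesis, was the most abundant of the list and had 70.0 and 73.9 FPKM.

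The indole branch went both ways. Of 10 measured genes, *CYP79B2*, which starts the branch, and the methyltransferase gene *IGMT2* were higher by at least 1.5-fold, and *CYP81F4*, which modifies the indole ring, was lower. *CYP79B2* had 3.19 FPKM in Col against 8.86 FPKM in *an3*, and *CYP81F4* had 118 and 72.2 FPKM. *IGMT2* may share reads with *IGMT1* and other close copies. Among 5 core enzymes that serve all glucosinolates, the glutathione transferase gene *GSTF9* was higher, with 201 and 333 FPKM, while *GSTF10*, the most abundant, had 1104 and 1289 FPKM. Of 7 measured regulators, *MYB28*, the regulator of the aliphatic branch, was higher by at least 1.5-fold, with 4.58 and 7.36 FPKM, and no longer passed when 1 FPKM was added to each value. *MYC2*, which works with the MYB factors, had 31.2 and 25.3 FPKM. None of the 3 glucosinolate transporter genes passed 1.5-fold, and *GTR1* had 31.4 and 32.4 FPKM.

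**Figure D5:**
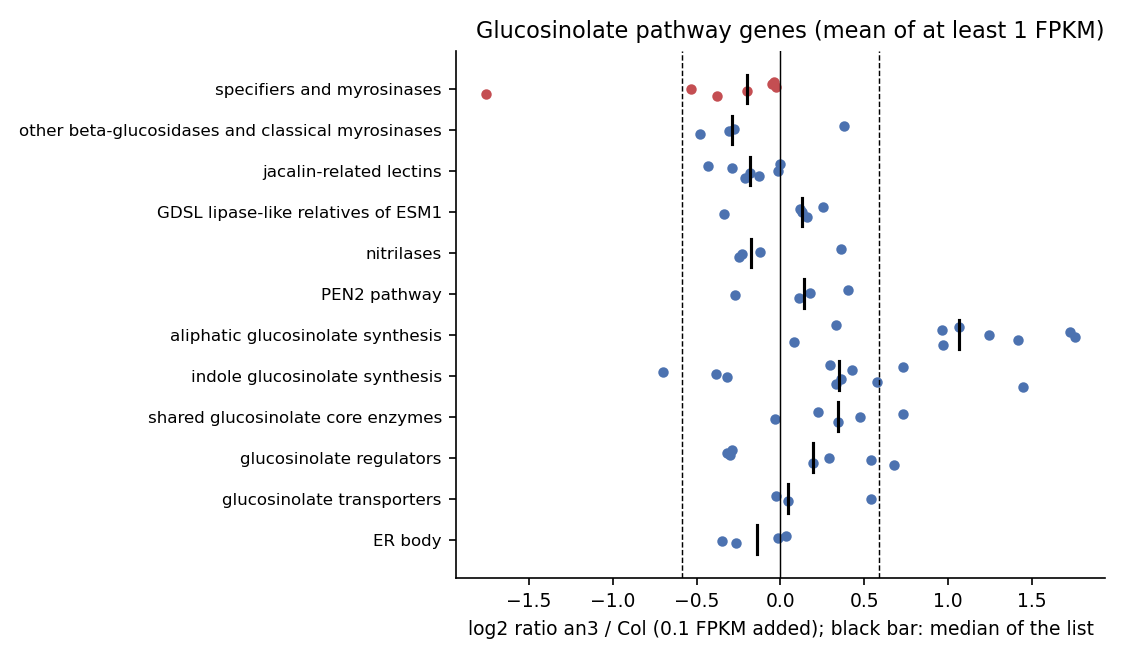
Log2 ratio of *an3* over Col (0.1 FPKM added) for the measured genes of each list, 1 point per gene, with the median of the list as a black bar and dashed lines at 1.5-fold. The specifiers and myrosinases (red) have a median of -0.20 with *NSP3* far to the left at -1.76, and the genes of aliphatic glucosinolate synthesis have a median of 1.06.

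Some markers of other tissues had lower levels in *an3* as well. All 5 root hair and epidermis markers had log2 ratios below 0, as did 50.6% of all measured rows and 40.0% of the rows with at least 50 FPKM. Their median was -0.22, *GL2* was at -0.09, and their summed levels were 734 FPKM in Col against 618 FPKM in *an3*. Only *RHD6* was lower by 1.5-fold. The summed level of 5 green shoot markers was 60.5 FPKM in Col against 22.1 FPKM in *an3*. *CAB1*, *PSBO1* and *RBCS1A*, the 3 that were measured, were lower by at least 1.5-fold, against 3.06% of all measured rows. The part of these tissues in the lower level of *NSP3* and *NSP5* was not tested. *TGG1* and *TGG2*, the myrosinases of green tissue, were listed at 0 in both genotypes. Of the meristem markers, *PLT1* was higher by 1.5-fold, with 0.944 FPKM in Col against 1.47 FPKM in *an3*, so at a low level.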

How the data were processed

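RNA-seq data from root tips of 3 *an3* and 3 Col samples were used, as 1 deposited table of 33201 rows. Per the study's methods and labels, the authors ran TuxNet, in which fastq-mcf of ea-utils filtered the reads, HISAT2 mapped them and Cufflinks estimated expression. The sources used here do not give tool versions, genome build, annotation or strand setting. The FPKM values are the authors' Cufflinks estimates, normalized to transcript length and library size, with 1 value per genotype. Such estimates divide reads between similar genes, and the Col column sums to 833287, the *an3* column to 869161. The deposited log2 fold changes and q-values hold the authors' own comparison and were not used.

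Ratios of *an3* to Col were taken on the log2 scale with 0.1 FPKM added to both values, which understates the change of low genes. Rows that averaged at least 1 FPKM were counted past 1.5-fold. No test was run, because there is 1 value per genotype, and depth and precision are unknown. Of the 33493 loci, 97.8% matched the TAIR10.1 names table. Coding sequences came from RefSeq TAIR10.1, using the transcript with the longest coding sequence of each gene. Identity was computed from global alignments, and windows of 100 bases, the read length, were searched on both strands of the assembly and of the transcripts of other genes. The log2 ratios, the counts past 1.5-fold and the search for the most alike stretch were tested on simulated data, and the other computations were not. Python 3.11.15, pandas 2.3.3, numpy 2.4.6, Biopython 1.88 and matplotlib 3.10.9 were used.

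The members, lists and alternatives were chosen with earlier results of these data known. The genes named were all members and, per list, the most abundant gene and up to 4 genes past 1.5-fold with at least 5 FPKM in the higher genotype, plus the 5 rows nearest to *NSP3* in ratio. *ABCG29*, *BGLU21*, *BGLU22*, *IPMI-SSU2*, *JAL22*, *JAL33*, *MBP1*, *MEB1*, *MEB2*, *UGT74C1*, *JR1*, *PEN3*, *TGG1*, *TGG2*, *TGG3* and the marker genes named were chosen after their values were seen. Under the alternatives, a change of a ratio or share by more than 1.5-fold was counted, as the replicate spread is unknown. Alternatives were other pseudocounts, scalings, size limits and minimum levels. The limit of 20% lower was read for genes of some lists after their values were seen. Promoter motifs and protein sequences were not analysed here.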

Additional observations from a re-analysis of the deposited data

How the results depend on the processing

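The settings tried could not have changed the direction of a measured gene, so they are no check of it. A pseudocount keeps the sign of a ratio. Equal column sums moved the log2 ratios together by about -0.061, and setting the median ratio of 0.9975 to 1 moved them by less. Over pseudocounts of 0.01 and 1 FPKM and over both rescalings, the log2 ratio of *NSP3* ranged from -1.82 to -1.72, that of *NSP5* from -0.59 to -0.53, that of *NSP1* from -0.44 to -0.37 and that of *TGG4* from -0.09 to -0.02. The number of members lower by the size limit was 1 as reported, 3 with a limit of 20% lower and 2 when each column was scaled to the same sum, a setting for this count that was chosen after the data were examined. Without a minimum on the mean, *ESM1* counted as 1 member higher, and its log2 ratio of 0.92, from values under 1 FPKM, became 0.26 with 1 FPKM added, which the added amount alone brings about at such low values. The lists were not run again under either rescaling. Among the lists, 78 of 89 values stayed within 1.5-fold of the reported ones, many of them counts that stayed at 0. All list values that moved were counts. The number of aliphatic synthesis genes higher was 7 as reported, 6 with 1 FPKM added, 5 with a limit of 2-fold and 11 without the minimum. The median log2 ratio of that list was 1.06 as reported and 0.80 with 1 FPKM added. The number of regulators higher was 1 as reported and 0 with 1 FPKM added. No paired analysis was possible because the table holds 1 value per genotype, and for the same reason leaving out each replicate was not run. Without read counts, a gene listed at 0 cannot be given an upper limit.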
